A study of Mus musculus with 12 samples.

Results

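The results below concern the response of mouse uterine stromal cells to estradiol (E2) when they were cultured beside uterine epithelium. They rest on the 6 stromal arrays among the 12 arrays of the series, 3 from E2-treated and 3 from vehicle-treated co-cultures. These arrays were chosen by their labels alone. The other 6 arrays hold the epithelial layer of such co-cultures and enter only where the layers are compared. RNA of each layer was measured on a whole-transcript microarray, in which each probe set summarizes the signals of many short probes along a gene. Uterine cells were freed by enzymes from CD-1 mice on day 4 of pseudopregnancy. Stromal cells were plated on cover slips and epithelial sheets on inserts coated with matrigel, in shared wells. All co-cultures spent a night in phenol red-free medium with 1% charcoal-stripped serum and then 2 days in 10 nM E2 or in 0.01% ethanol, the vehicle. Nothing in the labels tells if the 3 arrays of a group are different mice or different wells, so the p-values reflect the scatter among these arrays, which may be technical.

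Estradiol acts mainly through nuclear estrogen receptors, which bind DNA directly or through other transcription factors such as AP-1 and NF-kappaB and can raise or lower the activity of their targets. In the uterus the stroma carries much of the hormone's action, because stromal cells answer estradiol with growth factors that act on the neighbouring epithelium. Fgf10 and the bone morphogenetic proteins belong to such secreted signals, and the progesterone receptor is a classical estrogen-induced gene.

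Values are log2 signals, so a difference of 1 is a change of 2-fold. The number after ± is the standard error of that difference, from the limma linear model, in which the spread is moderated over all probe sets. An adjusted p is a two-sided limma p after Benjamini-Hochberg adjustment across all 21789 single-symbol probe sets, and a gene was called when it was under 0.05. Each of 19938 genes is represented by its brightest probe set. Whether a signal lay above background was not tested, so folds that start or end far below the array medians of 7.38 to 7.41 are ratios of signals and not of transcripts.

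The 16 uterine stromal markers had a mean log2 signal between 10.76 and 10.94 on the vehicle arrays and between 10.71 and 10.96 on the E2 arrays, with vimentin (Vim) and desmin (Des) at 12.98 or more on every array. Epithelial markers averaged 6.72 to 6.93 under vehicle and 7.01 to 7.15 under E2, against 9.27 to 10.79 in the epithelial layer, and the adhesion genes Cdh1 and Epcam did not exceed 7.19. Smooth muscle and pericyte markers, many of which stromal fibroblasts can express, averaged 10.46 to 10.70 and 10.56 to 10.63, close to the stromal markers, and 11 or 12 of the 12 lay above the array median. Leukocyte markers averaged 8.26 to 8.35 and 7.91 to 8.09. The arrays were not equally alike within groups. E2 replicates 1 and 2 differed least (SD of their differences over probe sets 0.109), and the other pairs within a group had SDs from 0.179 to 0.248. Vehicle replicate 2 stood nearest to the E2 arrays in 383 of the 809 genes called higher, against 166 for vehicle replicate 1 and 260 for vehicle replicate 3. In the 1115 called lower the counts were 373 for replicate 2, 395 for replicate 1 and 347 for replicate 3. With E2 replicates 1 and 2 averaged to 1 array, 446 probe sets were called higher and 674 lower, in place of 857 and 1251. Without vehicle replicate 2 the counts were 865 and 1198. The genes named below as risen or fallen kept their call when any 1 of the 6 arrays was left out, except where values without an array are given. In the fit of all 12 arrays, which share 1 estimate of the spread, 45 of the 159 named calls were lost. Of the genes described below these were Fgf10, Pgr, Igf1, Ptges, Sod2, Mmp8, Mmp12, Postn, Fzd5, Stc1, Nr3c1, Robo1, Cp, Csf1r, Ptprc, Itgav and Tgfbr2. The calls of Adgre1, Tyrobp and Kdr were lost there too. Genes described below that are outside the 159, such as Tnf, Rarb, Angpt2 and Hmox1, were not followed in that fit.

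E2 changed 9.65% of the genes tested, 809 of 19938 (4.06%) being called higher and 1115 (5.59%) lower. Counts of called list members below are to be read against these shares. The change was at least 2-fold in 157 genes that rose and 172 that fell, and at least 4-fold in 24 and 31. The groups of 3 arrays did not overlap in any called gene, and they did not overlap in 30.4% of all genes tested. The largest increase was that of Hsd11b2 and the largest decrease that of Steap4, both described below. In bulk samples such as these, fewer cells of a type and less RNA per cell cannot be told apart.

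**Figure D1:**
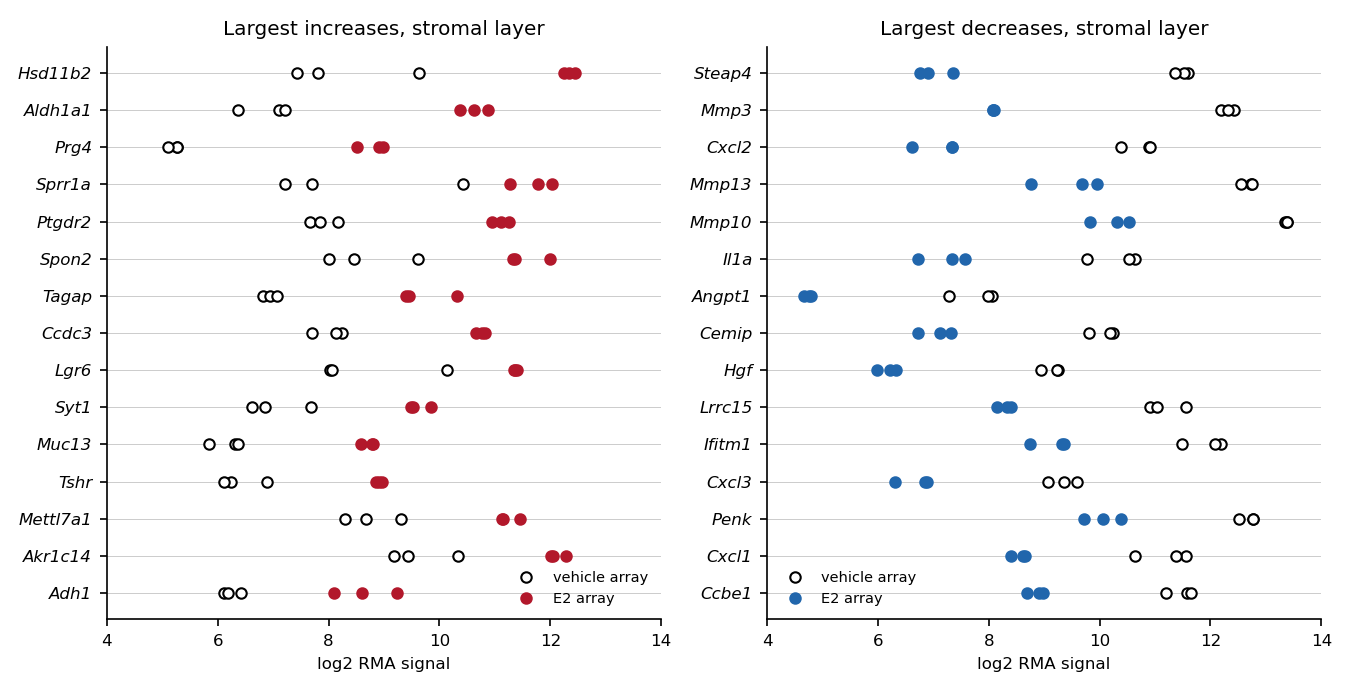
The log2 RMA signal of the 15 genes with the largest called increase and the 15 with the largest called decrease, 1 point per array (open, 3 vehicle arrays; filled, 3 E2 arrays). The groups are separate in every row, and in Hsd11b2, Sprr1a, Spon2 and Lgr6 one vehicle array, replicate 2, lies between the other vehicle arrays and the E2 arrays.

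Hsd11b2, the enzyme that inactivates glucocorticoids, measured 7.81, 9.63 and 7.44 under vehicle and 12.25, 12.33 and 12.45 under E2. It rose 16.6-fold (4.05 ± 0.49, adjusted p = 0.00198), and 26.4-fold without vehicle replicate 2, the highest of the vehicle arrays. Akr1c14, a hydroxysteroid dehydrogenase that reduces 3-keto steroids, rose 5.53-fold, from 9.44, 10.33 and 9.18 to 12.01, 12.05 and 12.28 (adjusted p = 0.00109). These were the called genes among 18 steroid-metabolizing enzymes measured, a share of 11.1% that lies near the 9.65% over all genes tested. In that list 0 were called lower, with 0 lower also at an unadjusted limma p under 0.05. The glucocorticoid receptor gene Nr3c1 fell by 0.56 ± 0.10 (adjusted p = 0.0122).

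Aldh1a1, which oxidizes retinaldehyde to retinoic acid, measured 6.37, 7.11 and 7.21 under vehicle and 10.63, 10.88 and 10.37 under E2, far apart in all arrays. Its log2 difference was 3.73 ± 0.22 (13.3-fold, adjusted p = 0.000131). Adh1, an alcohol dehydrogenase that can oxidize retinol, rose 5.29-fold (2.40 ± 0.25, adjusted p = 0.000987), with E2 arrays at 8.10, 8.61 and 9.23 above vehicle arrays at 6.12, 6.42 and 6.18. Of 20 measured genes of retinoid metabolism, 4 were called higher and 5 lower, with a median difference of 0.12 against 0.02 over all genes tested. The cellular binding proteins for retinoic acid went opposite ways, Crabp2 rising by 1.61 ± 0.14 and Crabp1 falling by 2.48 ± 0.17. The retinol uptake receptor Stra6 (-1.22 ± 0.20) and the retinol-esterifying enzyme Lrat (-1.63 ± 0.28) fell. Rarb, a retinoic acid receptor that is itself induced by retinoic acid, measured 8.15, 10.07 and 7.97 under vehicle and 11.05, 11.09 and 10.65 under E2. Its difference was 2.20 ± 0.49 (adjusted p = 0.0289), and the largest adjusted p without 1 array was 0.103.

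Neither estrogen receptor gene was called, and the progesterone receptor gene rose. Esr1, estrogen receptor alpha, measured 10.87, 11.29 and 10.93 under vehicle and 10.48, 10.47 and 10.80 under E2, a difference of -0.45 ± 0.13 that was not called (adjusted p = 0.0766). Esr2 lay between 6.16 and 6.73 on all 6 arrays (-0.01 ± 0.14, adjusted p = 0.979). The progesterone receptor gene Pgr was 1.89-fold higher, from 10.21, 10.67 and 9.96 to 11.08, 11.20 and 11.33 (0.92 ± 0.17, adjusted p = 0.0118). With all 12 arrays in 1 fit its adjusted p was 0.0615. Greb1, an estrogen-induced cofactor of the receptor, measured 7.53, 9.38 and 7.52 under vehicle and 10.48, 10.49 and 10.57 under E2 (2.37 ± 0.44, adjusted p = 0.0139). The vehicle arrays of Greb1 were thus split, with replicate 2 between the others and the E2 arrays. The Greb1 difference was 2.99 without that array (adjusted p = 3.48e-06), and the adjusted p was 0.0509, 0.0517 and 0.0546 without vehicle replicate 3, E2 replicate 1 and E2 replicate 2.

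Of 30 measured uterine estrogen-responsive genes 7 were called higher and 4 lower (median 0.11). Counts without 1 array ran from 3 to 9 higher and from 2 to 4 lower, the fewest higher without E2 replicate 1 or 2. Fos, a subunit of AP-1, rose by 1.36 ± 0.11 (2.56-fold, adjusted p = 0.000425), from 8.32, 8.68 and 8.74 to 9.88, 9.93 and 10.01. Its partner Jun fell by 0.82 ± 0.11 (adjusted p = 0.00268), and Myc, a growth-promoting transcription factor, fell by 0.52 ± 0.09. Egr2, another immediate early gene, fell by 1.17 ± 0.15. In the list of 21 immediate early and AP-1 genes 3 were called higher and 5 lower (median -0.10). Without 1 array 1 to 2 were higher and 3 to 5 lower. Besides Fos, Klf4 was called higher there (0.63 ± 0.12, adjusted p = 0.016), with a largest adjusted p without 1 array of 0.0681. Ltf, the lactoferrin gene known from estrogen-stimulated epithelium, lay between 5.80 and 6.22 on all 6 arrays (0.12 ± 0.10, adjusted p = 0.533).

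**Figure D2:**
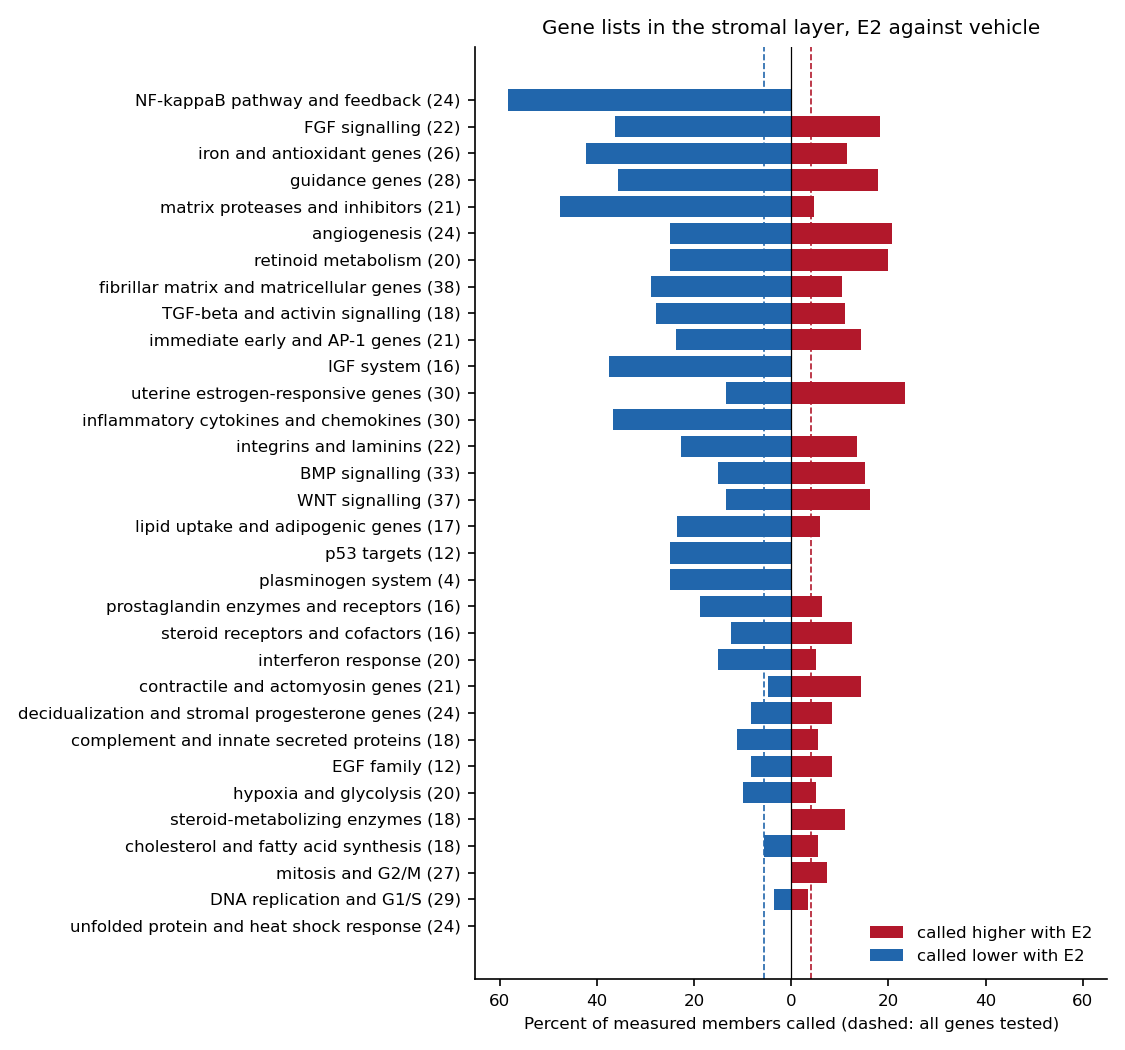
The percent of measured members called higher (red, to the right) or lower (blue, to the left) with E2 for 32 gene lists, with the number measured in brackets; dashed lines mark 4.06% higher and 5.59% lower over all genes tested. The NF-kappaB, protease, iron and inflammatory lists extend to the left, and the unfolded protein list has no bar.

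Growth factor genes that the stroma can send to other cells were called in both directions. Fgf10, a fibroblast growth factor that acts on epithelia, measured 8.50, 7.78 and 8.37 under vehicle and 9.63, 9.71 and 9.23 under E2. All E2 arrays lay above all vehicle arrays, and Fgf10 rose 2.47-fold (1.30 ± 0.20, adjusted p = 0.00549). In the fit of all 12 arrays its adjusted p was 0.116. Fgf7, a keratinocyte growth factor that uses the same epithelial receptor form, went the other way, from 11.06, 10.76 and 10.42 to 8.94, 8.99 and 8.81 (-1.83 ± 0.15, 3.55-fold lower, adjusted p = 0.000402). Fgf2 rose by 0.83 ± 0.11 (adjusted p = 0.0032).

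Feedback and target genes of FGF and ERK signalling were mostly lower with E2, 6 of 8 measured being called lower and 1 higher (median -0.89). Spry1, a Sprouty inhibitor of receptor tyrosine kinase signalling, fell from 9.90, 9.58 and 9.74 to 8.17, 8.02 and 8.29 (-1.58 ± 0.10, adjusted p = 0.000183). Spry4 (-1.23 ± 0.12), the ETS factor Etv4 (-1.09 ± 0.12), the ERK phosphatase Dusp6 (-0.93 ± 0.09) and the Ras inhibitor Spred1 (-0.84 ± 0.09) fell with it. The ETS factor Etv5 was also called lower, with a largest adjusted p without 1 array of 0.0657. Spry2 was the member that rose (1.05 ± 0.17, adjusted p = 0.007), from 8.51, 8.91 and 8.36 to 9.69, 9.88 and 9.36. Over the whole FGF list 4 of 22 members were higher and 8 lower. The heparin-binding EGF ligand Hbegf fell by 1.18 ± 0.17, and Errfi1, which inhibits the EGF receptor, rose by 0.65 ± 0.07.

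Among the ligands of BMP signalling 4 of 12 were called higher and 1 lower. Bmp8a measured 7.54, 8.38 and 7.57 under vehicle and 9.80, 9.80 and 9.82 under E2, with no overlap. It rose 3.94-fold (1.98 ± 0.20, adjusted p = 0.000958). Its close copy Bmp8b rose 2.12-fold, from 9.08, 9.29 and 9.22 to 10.32, 10.44 and 10.07 (adjusted p = 0.000804). The sequences of both genes are near-identical, so probes may share signal and the split between them is uncertain. Bmp6 rose by 0.54 ± 0.09, and the type I receptor Acvr1 fell by 0.50 ± 0.07. The decidual ligand Bmp2 measured 0.58 ± 0.16 higher and was not called (adjusted p = 0.0611). In all, 5 of 33 BMP genes were higher and 5 lower (median -0.07), and without E2 replicate 2 the counts were 3 and 1. In the TGF-beta and activin list 2 of 18 members were called higher and 5 lower (median -0.06), against 9.65% called over all genes. The share called there was 38.9%, and without 1 array the counts ran from 0 to 2 higher and from 2 to 4 lower. The type I receptors Tgfbr1 (-0.86 ± 0.06, adjusted p = 0.000304) and Acvr1b (-0.67 ± 0.10) fell, while the type II receptor Tgfbr2 was called higher (0.36 ± 0.06, adjusted p = 0.00874, and 0.056 without E2 replicate 2).

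Genes that act on blood and lymph vessels changed both ways, 5 of 24 being called higher and 6 lower (median -0.06). Angpt1, which activates the endothelial receptor Tek, fell from 8.06, 7.28 and 7.98 to 4.76, 4.79 and 4.66 (-3.04 ± 0.19, adjusted p = 0.000138). The E2 values of Angpt1 lie near the lowest signals of the arrays, so the ratio of 8.21 is between signals. Angpt2, a context-dependent antagonist at the same receptor, rose 3.12-fold, from 7.03, 7.35 and 7.63 to 8.66, 8.78 and 9.49 (1.64 ± 0.23, adjusted p = 0.00378). Hgf, hepatocyte growth factor, fell 7.81-fold, from 9.25, 8.94 and 9.23 to 5.98, 6.33 and 6.22 (-2.96 ± 0.12, adjusted p = 3.04e-05). The lymphatic growth factor Vegfd rose by 1.95 ± 0.24 (adjusted p = 0.00208). Ccbe1, which promotes the maturation of lymphatic growth factors, fell by 2.62 ± 0.13 (adjusted p = 7.45e-05). Placental growth factor Pgf (-1.32 ± 0.23) and its receptor gene Flt1 (-1.14 ± 0.13) fell, and Vegfa was not called (-0.08 ± 0.09, adjusted p = 0.651).

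**Figure D3:**
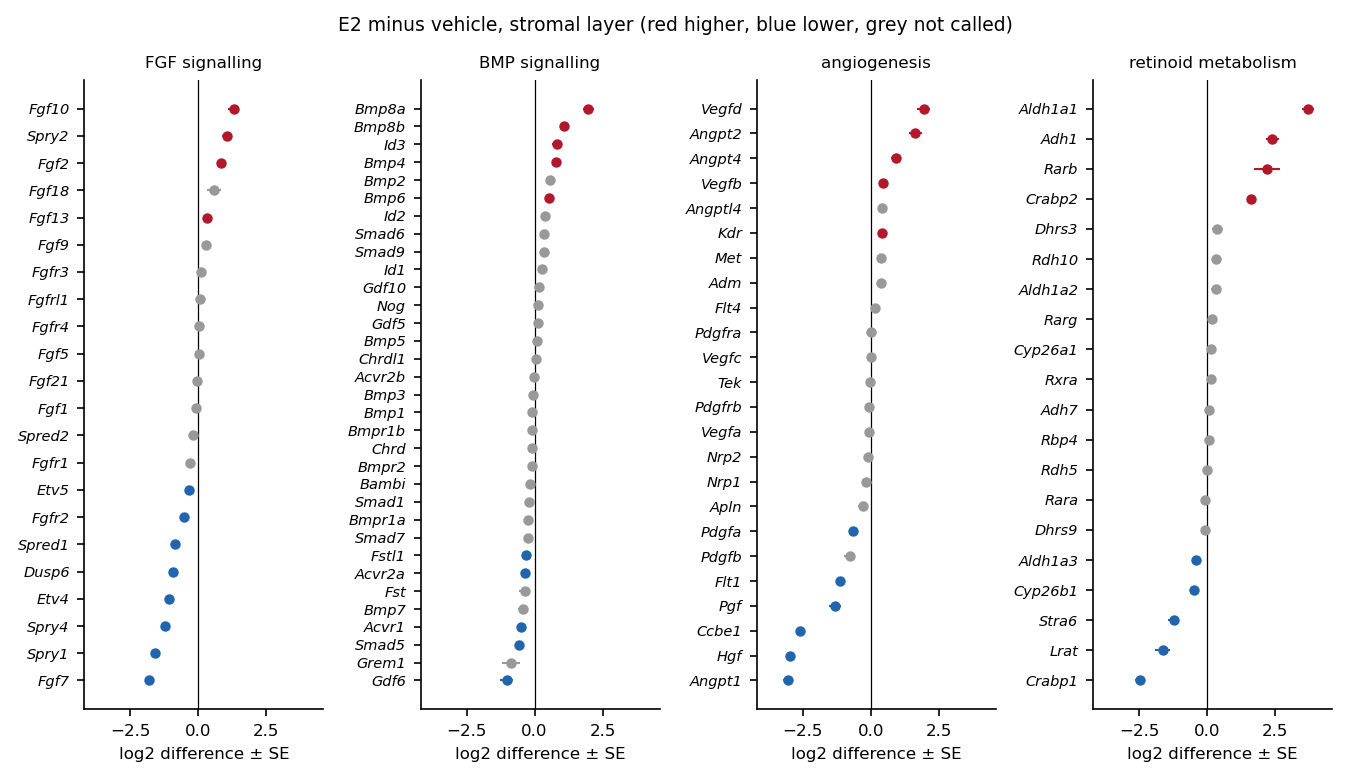
The log2 difference E2 minus vehicle with its standard error for every measured member of 4 lists (red, called higher; blue, called lower; grey, not called). Fgf10 heads the FGF list at 1.30 and Fgf7 ends it at -1.83, and Bmp8a, Vegfd and Aldh1a1 head the other lists.

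In the IGF system 6 of 16 members were called lower and 0 higher by limma, with 0 higher at an unadjusted p under 0.05 as well (median -0.32). Igfbp4, an IGF-binding protein, fell from 12.50, 12.55 and 12.52 to 10.89, 10.74 and 11.57 (-1.46 ± 0.19, adjusted p = 0.00283). Pappa, the protease that cleaves Igfbp4, fell by 1.26 ± 0.12, and Stc1, a stanniocalcin, by 0.95 ± 0.15. The insulin receptor gene Insr fell by 0.51 ± 0.06. Igf1 measured 10.05, 10.49 and 10.33 under vehicle and 9.43, 9.40 and 9.86 under E2 (-0.73 ± 0.15, adjusted p = 0.0214). The Igf1 groups did not overlap, but its adjusted p was 0.0524, 0.0723, 0.0872 and 0.0904 when vehicle arrays 2 or 3 or E2 arrays 1 or 2, in that order, were left out, and 0.069 in the fit of all 12 arrays.

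WNT genes numbered 6 higher and 5 lower of 37 measured (median 0.08), and 3 and 3 when any of vehicle arrays 1 and 3 and E2 arrays 1 and 2 was dropped. The frizzled receptors split, Fzd1 falling by 1.34 ± 0.12 (adjusted p = 0.000516) and Fzd3 by 0.68 ± 0.10 while Fzd2 rose by 0.75 ± 0.09 and Fzd5 by 0.55 ± 0.08. Lef1, a transcription factor of the pathway, fell from 8.43, 8.36 and 8.38 to 7.57, 7.47 and 7.47 (-0.88 ± 0.06, adjusted p = 0.000243). Wnt4, a WNT ligand of decidualizing stroma, measured 0.35 ± 0.10 higher and was not called (adjusted p = 0.0595).

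The inflammatory genes that passed the test were all lower. Of 30 measured cytokines, chemokines and related enzymes, 11 were called lower and 0 higher by limma (14 and 0 at an unadjusted p under 0.05), with a median of -0.45 against 0.02 over all genes. Without 1 array the count of lower members ran from 7, without E2 replicate 2, to 14, without vehicle replicate 2. Cxcl2, a chemokine that attracts neutrophils, measured 10.89, 10.38 and 10.91 under vehicle and 7.33, 7.34 and 6.62 under E2, 12.4-fold lower (-3.63 ± 0.22, adjusted p = 0.000131). Its relatives Cxcl3 (-2.66 ± 0.18), Cxcl1 (-2.63 ± 0.22) and Cxcl5 (-2.62 ± 0.19) fell with it. These chemokine genes resemble each other in sequence, and shared signal between their probe sets was not tested. Il1a, interleukin 1 alpha, fell 8.57-fold, from 10.64, 9.77 and 10.53 to 7.34, 7.57 and 6.72 (-3.10 ± 0.27, adjusted p = 0.000516). Tnf fell 5.99-fold, from 9.66, 8.98 and 10.19 to 7.07, 7.05 and 6.97 (-2.58 ± 0.26, adjusted p = 0.000865). Il6, another inflammatory cytokine, measured 9.73, 7.37 and 9.21 under vehicle and 7.17, 7.14 and 5.65 under E2 and was not called (-2.12 ± 0.62, adjusted p = 0.0758), vehicle replicate 2 lying close to the E2 arrays. The prostaglandin E synthase gene Ptges fell by 0.87 ± 0.08, while Ptgs2, the cyclooxygenase ahead of it, was not called (-0.23 ± 0.09, adjusted p = 0.153).

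NF-kappaB is the transcription factor family that drives many of these genes, and it also switches on its own inhibitors. Of 24 measured genes of the pathway and its feedback 14 were called lower and 0 higher by limma (16 and 0 at an unadjusted p under 0.05), with a median of -0.47 and 11 to 15 lower without 1 array. The inhibitor gene Nfkbie fell from 9.14, 9.08 and 9.01 to 7.85, 7.89 and 7.98 (-1.17 ± 0.07, adjusted p = 0.000126). Nfkbia, which encodes the inhibitor IkB alpha, fell from 11.15, 11.37 and 11.29 to 10.19, 10.21 and 10.51 (-0.97 ± 0.10, adjusted p = 0.00112). Among the subunits Nfkb2 (-0.75 ± 0.07) and Relb (-0.47 ± 0.07) fell, and Rela was not called (-0.07 ± 0.06, adjusted p = 0.587). The survival gene Birc3 (-1.11 ± 0.07) and the mitochondrial dismutase Sod2 (-0.81 ± 0.10), both known targets, fell as well. On the receptor side the interleukin 1 receptor accessory protein Il1rap (-0.91 ± 0.11), Tlr2 (-0.86 ± 0.14) and the TNF receptor Tnfrsf1b (-0.64 ± 0.09) fell.

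Most leukocyte markers measured lower with E2, and few were called. Of 19 measured, 4 were called lower and 1 higher (median -0.29), with 1 to 3 lower without 1 array. The share called was 26.3%, against 9.65% over all genes. In 14 of the 19 the difference was below 0 (8589 of 19938 over all genes). Of the 19, 13 lay above the array median under vehicle and 11 to 12 under E2. The pan-leukocyte gene Ptprc fell from 7.89, 7.88 and 7.75 to 7.32, 7.36 and 7.06 (-0.59 ± 0.09, adjusted p = 0.00623), whereas Csf1r, the macrophage receptor for Csf1, rose from 9.38, 9.37 and 9.30 to 9.80, 9.79 and 9.92. Also called lower were Cd74 (-1.86 ± 0.36), Tyrobp (-0.42 ± 0.09) and the macrophage gene Adgre1 (-0.49 ± 0.11). Their largest adjusted p without 1 array was 0.0636, 0.0687 and 0.104, in that order. The macrophage genes Lyz2 (-0.03 ± 0.11, adjusted p = 0.889) and Cd68 (0.15 ± 0.17, adjusted p = 0.643) were not called. The part of leukocytes in the inflammatory decrease was not tested.

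**Figure D4:**
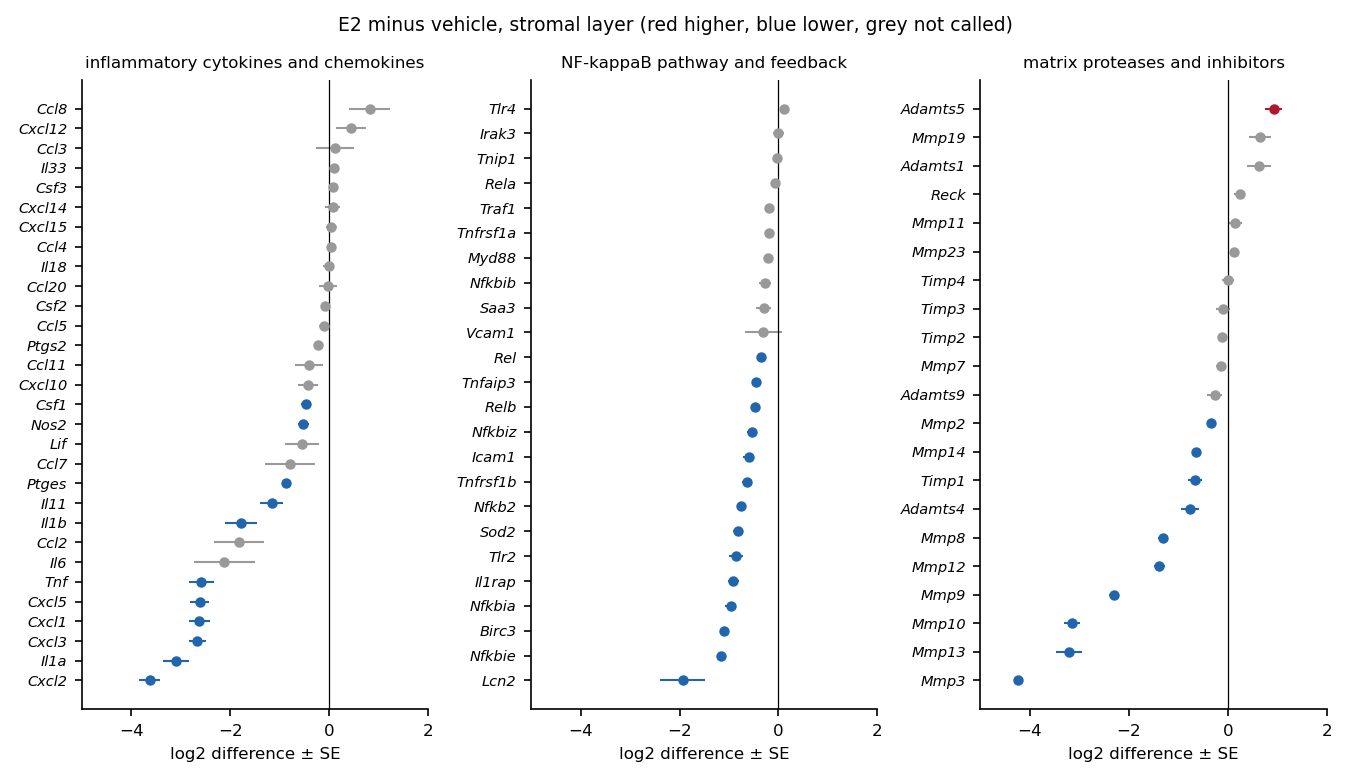
The log2 difference E2 minus vehicle with its standard error for every measured member of the inflammatory, NF-kappaB and matrix protease lists (red, called higher; blue, called lower; grey, not called). The blue members reach -3.63 for Cxcl2 and -4.23 for Mmp3, and Adamts5 is the 1 red member.

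Because NF-kappaB and AP-1 are the factors best known for acting on these chemokine and protease genes, the stretches just ahead of their start sites were read from RefSeq (GRCm38.p6) and searched on both strands. The NF-kappaB motif was GGG and TTTCC 2 bases apart, and the AP-1 motif was TGANTCA. The following 120 bases end 1 base before the start site of 3 chemokine genes and of Nfkbia, all of which fell, and are shown for the motif copies, in capitals, that they carry close to the start. Each is written 5′ to 3′ along its gene.
Cxcl1, chr5:90891125-90891244, plus strand: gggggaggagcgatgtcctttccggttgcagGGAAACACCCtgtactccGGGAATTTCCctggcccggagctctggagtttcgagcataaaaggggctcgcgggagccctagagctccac
Cxcl2, chr5:90903779-90903898, plus strand: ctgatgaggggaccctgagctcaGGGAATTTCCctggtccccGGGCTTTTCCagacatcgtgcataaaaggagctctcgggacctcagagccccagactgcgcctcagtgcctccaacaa
Cxcl3, chr5:90785981-90786100, plus strand: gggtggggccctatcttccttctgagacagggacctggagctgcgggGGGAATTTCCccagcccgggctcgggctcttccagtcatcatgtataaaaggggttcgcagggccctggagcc
Nfkbia, chr12:55492648-55492767, minus strand: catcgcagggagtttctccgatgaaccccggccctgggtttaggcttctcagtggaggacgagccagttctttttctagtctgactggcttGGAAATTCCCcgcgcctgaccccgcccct
Cxcl1 and Cxcl2 have 2 copies each in these windows, and Cxcl3 and Nfkbia have 1. In promoters of 300 bases the NF-kappaB motif was found in 286 of 15614 genes tested (1.83%), in 38 of 833 genes called lower (4.56%) and in 11 of 649 called higher (1.69%). Among inflammatory genes it was in 4 of 9 called lower and in 2 of 13 not called, and in the NF-kappaB list in 4 of 12 called lower and 0 of 8 not called. A match is a description of the letters and not evidence that a factor binds there, and the absence of one says nothing about the factor.

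Matrix metalloproteinases, which cut collagen and other matrix proteins, were among the largest decreases. Mmp3, stromelysin 1, measured 12.18, 12.43 and 12.31 under vehicle and 8.07, 8.08 and 8.09 under E2, and fell 18.8-fold (-4.23 ± 0.08, adjusted p = 2.99e-07). The groups of Mmp3 lay far apart, with E2 arrays almost equal. Mmp10, stromelysin 2, fell 8.84-fold, from 13.34, 13.38 and 13.38 to 10.54, 10.31 and 9.83 (-3.14 ± 0.16, adjusted p = 7.6e-05). Mmp13, a collagenase, fell 9.20-fold, from 12.73, 12.74 and 12.55 to 9.96, 9.69 and 8.77 (-3.20 ± 0.27, adjusted p = 0.00043). The gelatinase Mmp9 fell by 2.31 ± 0.10 (adjusted p = 3.04e-05), the macrophage elastase Mmp12 by 1.38 ± 0.11 and the neutrophil collagenase Mmp8 by 1.32 ± 0.09. In the collagenase and stromelysin group 5 of 7 measured members were called lower and 0 higher. The membrane protease Mmp14 fell by 0.63 ± 0.07. Of 21 matrix proteases and inhibitors 10 were lower and 1 higher (median -0.27), with 7 to 10 lower without 1 array. The one higher was the aggrecanase Adamts5 (0.93 ± 0.18, adjusted p = 0.0155), whose adjusted p was at most 0.0636 without 1 array. In the small plasminogen list the activator gene Plat fell from 11.28, 10.69 and 10.99 to 9.35, 9.46 and 9.44 (-1.57 ± 0.13, adjusted p = 0.000469).

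The AP-1 motif ended 57 bases or fewer before the start site in 4 of these protease genes, all on chromosome 9. The 100 bases that end 1 base before each start site are shown for that motif, in capitals.
Mmp3, chr9:7445722-7445821, plus strand: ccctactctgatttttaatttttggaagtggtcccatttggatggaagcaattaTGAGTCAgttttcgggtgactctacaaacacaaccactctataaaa
Mmp10, chr9:7502242-7502341, plus strand: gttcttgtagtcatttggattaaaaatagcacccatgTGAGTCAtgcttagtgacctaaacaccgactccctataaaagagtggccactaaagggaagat
Mmp12, chr9:7347274-7347373, plus strand: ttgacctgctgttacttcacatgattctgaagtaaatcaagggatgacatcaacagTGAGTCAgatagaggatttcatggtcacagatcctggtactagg
Mmp13, chr9:7272414-7272513, plus strand: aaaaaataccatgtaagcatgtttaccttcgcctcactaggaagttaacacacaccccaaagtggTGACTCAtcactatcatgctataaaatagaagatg
Of the matrix protease genes with a promoter in the table, the motif was in 4 of 7 called lower and 1 of 9 not called. The 1 not called was Mmp7, also on chromosome 9. Its TGAGTCA is centred at -60 bases from the start site, the same position as in Mmp10. It was in 8.08% of the genes tested, 8.76% of those called lower and 8.78% of those called higher, shares that lie close together. The estrogen receptor's own element, GGTCA and TGACC 3 bases apart, was in 6 of 15614 genes tested and in 0 of 649 called higher and 0 of 833 called lower. A single AGGTCA arm, which the full element contains when an A stands before it, was in 17.9% of genes called higher, 13.6% of those called lower and 16.3% of those tested.

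Among the genes of the matrix itself, 4 of 38 measured were called higher and 11 lower (median -0.09). Prg4, the lubricant proteoglycan lubricin, measured 5.26, 5.27 and 5.10 under vehicle and 8.97, 8.91 and 8.51 under E2 (3.59 ± 0.12, adjusted p = 1.78e-05). Its vehicle signals lie far below the array medians, so its fold would be between signals and not between transcripts. Loxl4, a collagen-crosslinking oxidase, rose from 8.74, 9.21 and 9.09 to 10.54, 10.62 and 10.39 (1.50 ± 0.12). Ccn4, a matricellular protein known as a WNT target, fell from 11.01, 10.96 and 10.95 to 8.81, 8.96 and 8.70 (-2.15 ± 0.08, adjusted p = 2.18e-05). Versican (Vcan) fell by 1.01 ± 0.09, periostin (Postn) by 0.95 ± 0.09 and the basement membrane collagen Col15a1 by 1.09 ± 0.17. The count of lower matrix genes was 5 without vehicle replicate 3, E2 replicate 1 or E2 replicate 2. Cemip, which takes part in breaking down hyaluronan, fell 8.15-fold, from 10.24, 10.19 and 9.81 to 7.12, 7.32 and 6.72.

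Genes that handle iron, other metals and oxidants held the largest single decrease. Steap4, a metalloreductase known to respond to inflammatory signals, measured 11.59, 11.53 and 11.36 under vehicle and 6.90, 6.77 and 7.35 under E2, 22.4-fold lower (-4.49 ± 0.15, adjusted p = 1.69e-05). Slc40a1, the iron exporter ferroportin, fell from 10.69, 10.30 and 10.30 to 7.73, 7.73 and 8.56 (-2.42 ± 0.22, adjusted p = 0.000673). The ferroxidase ceruloplasmin (Cp, -1.44 ± 0.16), heme oxygenase 1 (Hmox1, -1.23 ± 0.15), the metallothioneins Mt1 (-1.33 ± 0.16) and Mt2 (-0.94 ± 0.12), the metal importers Slc39a14 (-0.72 ± 0.11) and Slc11a2 (-0.61 ± 0.07) and ferritin heavy chain (Fth1, -0.44 ± 0.07) fell too. Cdo1, which oxidizes cysteine, rose by 2.17 ± 0.13 (4.50-fold), and the glutathione peroxidases Gpx3 (1.00 ± 0.07) and Gpx1 (0.92 ± 0.08) rose. In all, 11 of 26 members were lower and 3 higher (median -0.36), with 10 to 12 lower without 1 array.

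Guidance molecules, which steer migrating cells and vessels, had 5 of 28 members higher and 10 lower (median 0.06). The Slit receptor Robo2 fell from 11.21, 11.53 and 11.06 to 9.04, 9.07 and 8.59 (-2.37 ± 0.16, adjusted p = 0.000206) and Robo1 by 0.77 ± 0.07. The netrins split. Ntn1 fell from 9.97, 10.35 and 10.05 to 8.33, 8.35 and 8.41 (-1.77 ± 0.10), and Ntn4 rose from 7.78, 8.19 and 7.90 to 9.67, 9.71 and 9.65 (1.72 ± 0.10). The netrin receptor Unc5b fell by 0.95 ± 0.10. Sema5a (1.91 ± 0.23), Sema6a (1.72 ± 0.08) and Sema3e (1.06 ± 0.14) were semaphorins that rose, and Sema7a fell by 1.09 ± 0.18.

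Other genes among the largest increases encode receptors and surface proteins. Ptgdr2, a receptor for prostaglandin D2, rose 9.24-fold, from 7.66, 8.17 and 7.85 to 11.10, 11.25 and 10.96 (3.21 ± 0.13, adjusted p = 3.04e-05). Tshr, the thyrotropin receptor, rose from 6.25, 6.89 and 6.11 to 8.91, 8.86 and 8.97 (2.50 ± 0.18). Lgr6, a receptor for R-spondins, measured 8.03, 10.14 and 8.05 under vehicle and 11.37, 11.35 and 11.40 under E2. Its rise was 6.21-fold (2.63 ± 0.50, adjusted p = 0.0149) and 10.1-fold without vehicle replicate 2, and the largest adjusted p without 1 array was 0.0573. Syt1, a calcium sensor of vesicle release (2.57 ± 0.25), the matrix protein gene Spon2 (2.87 ± 0.38), the GTPase-activating protein gene Tagap (2.78 ± 0.23), Ccdc3 (2.72 ± 0.13) and Mettl7a1 (2.49 ± 0.23) rose as well. In the other direction Penk, the precursor of enkephalins, fell from 12.76, 12.76 and 12.52 to 10.39, 10.05 and 9.72 (-2.63 ± 0.16, adjusted p = 0.000138), and Lrrc15, a membrane protein of activated fibroblasts, by 2.87 ± 0.16. Ifitm1, an interferon-induced membrane protein, fell by 2.78 ± 0.22 on its brightest probe set and by 3.20 ± 0.23 on another.

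Some of the genes that rose are better known from epithelia. The mucin Muc13 rose from 5.83, 6.32 and 6.36 to 8.80, 8.78 and 8.59 (2.55 ± 0.14, adjusted p = 0.000105), and the keratin Krt7 from 7.24, 7.76 and 7.17 to 8.86, 8.73 and 8.52 (1.32 ± 0.16, adjusted p = 0.00207). The cornified envelope gene Sprr1a measured 7.70, 10.42 and 7.22 under vehicle and 12.02, 11.77 and 11.28 under E2 (3.25 ± 0.73, adjusted p = 0.0291), 18.9-fold higher without vehicle replicate 2 and with a largest adjusted p of 0.105 without 1 array. Of 17 epithelial markers 2 were called higher and 0 lower by limma (6 and 0 at an unadjusted p under 0.05). Beside Krt7 this was Krt18, whose largest adjusted p without 1 array was 0.144. The share called was 11.8%, against 9.65% over all genes. In 15 of the 17 the difference was above 0 (11349 of 19938 over all genes), with a median of 0.17 against 0.02. The defining markers Cdh1 (-0.09 ± 0.15, adjusted p = 0.773) and Epcam (0.26 ± 0.19, adjusted p = 0.446) were not called. The part of epithelial cells in these increases was not tested.

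Of 27 genes of mitosis 2 were called, a share of 7.41% against 9.65% over all genes. All 27 had a difference above 0 (11349 of 19938 over all genes), with a median of 0.39 against 0.02, and the groups did not overlap in 15 of them (30.4% over all genes). Mad2l1, a spindle checkpoint gene, rose by 0.77 ± 0.10 (adjusted p = 0.00332), and Anln, which acts in cytokinesis, from 7.91, 7.96 and 7.41 to 8.74, 8.80 and 9.37 (1.21 ± 0.20, adjusted p = 0.00741). These 2 were the only members called higher, and 0 were called lower by limma (14 higher and 0 lower at an unadjusted p under 0.05). E2 replicate 3 was the highest of the 6 arrays in all 27 genes, and the median was 0.18 without it. Mki67, the proliferation marker, was not called (0.31 ± 0.23, adjusted p = 0.454). In the list of DNA replication and G1/S genes 1 of 29 was called in each direction (median 0.06).

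The share called was 16.7% among decidualization genes, 20% among interferon response genes and 11.1% among genes of cholesterol and fatty acid synthesis, against 9.65% over all genes. In the decidualization list 2 of 24 members were called higher and 2 lower (median 0.08), and 5 were higher without vehicle replicate 2. The homeobox gene Hoxa10 measured 10.09, 10.06 and 10.13 under vehicle and 9.88, 9.93 and 10.12 under E2 and was not called (-0.12 ± 0.08, adjusted p = 0.383). None of 24 genes of the unfolded protein and heat shock response was called by limma (5 lower and 0 higher at an unadjusted p under 0.05). Of 20 interferon response genes 3 were lower and 1 higher, led by the GTPase Irgm1, which fell by 1.54 ± 0.11, and the transcription factor Irf1, which fell by 1.01 ± 0.13. Cholesterol and fatty acid synthesis had 1 of 18 called in each direction, but 7 higher without E2 replicate 3.

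The last comparison asked whether the response differed between the layers, by testing the stromal difference minus the epithelial difference in a fit of all 12 arrays. Over all genes 1% were called. Of the 36 genes that had the largest stromal differences or were always followed, 22 were called, and since most were picked for their size in stroma that count is not read against the background. Prg4 differed by 3.10 (adjusted p = 0.00015), its epithelial difference being 0.49 ± 0.15. Aldh1a1 rose in stroma by 2.48 more than the 1.25 ± 0.28 measured in epithelium (adjusted p = 0.0122), and Bmp8a by 1.39 more than the 0.59 ± 0.20 measured there. The Bmp8a call between layers (adjusted p = 0.0401) was lost in 9 of the 12 fits without 1 array, with an adjusted p of up to 0.109. Steap4 fell in stroma and measured -0.40 ± 0.35 in epithelium, so the layers differed by -4.09 (adjusted p = 0.00376). Cxcl2 gave -0.20 ± 0.33 in epithelium and a difference between layers of -3.43 (adjusted p = 0.00637). Pgr and Akr1c14 went the other way, with larger differences in epithelium, 2.98 ± 0.24 and 5.20 ± 0.29, than in stroma (adjusted p = 0.0145 and 0.0102). The Pgr call was lost without epithelial E2 replicate 1 or 2 or stromal E2 replicate 1, with an adjusted p of at most 0.0534. Igf1 had opposite signs, 1.16 ± 0.20 in epithelium and -0.73 ± 0.15 in stroma, and differed by -1.89 (adjusted p = 0.0088).

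For Fgf10 the layers were not shown to differ (0.92 ± 0.40 in epithelium, adjusted p = 0.986), nor for Hsd11b2 (adjusted p = 0.113), Mmp3 (0.154), Mmp10 (0.16) and Mmp13 (0.15). Without epithelial vehicle replicate 2 the layers differed in Mmp3 (adjusted p = 0.0294), Mmp10 (0.0101) and Mmp13 (0.0272), and without stromal vehicle replicate 2 they differed in Hsd11b2 (adjusted p = 0.00964). The epithelial standard errors of those proteases, 0.68 to 0.78, came from the fit of all 12 arrays, in which all groups share 1 estimate of the spread. The stromal ones, 0.08 to 0.27, came from the 6 stromal arrays alone. These ranges therefore do not compare the spread of the layers. The epithelial arrays also carried stromal markers, and not equally in both groups. Their mean was 10.27 over the epithelial vehicle arrays (9.95 to 10.74) and 10.67 over the epithelial E2 arrays (10.64 to 10.70). Epithelial markers averaged 10.15 (9.40 to 10.79) and 9.43 (9.27 to 9.57) on the same groups. The part of stromal RNA in the epithelial differences, and so in the differences between layers, was not tested.

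**Figure D5:**
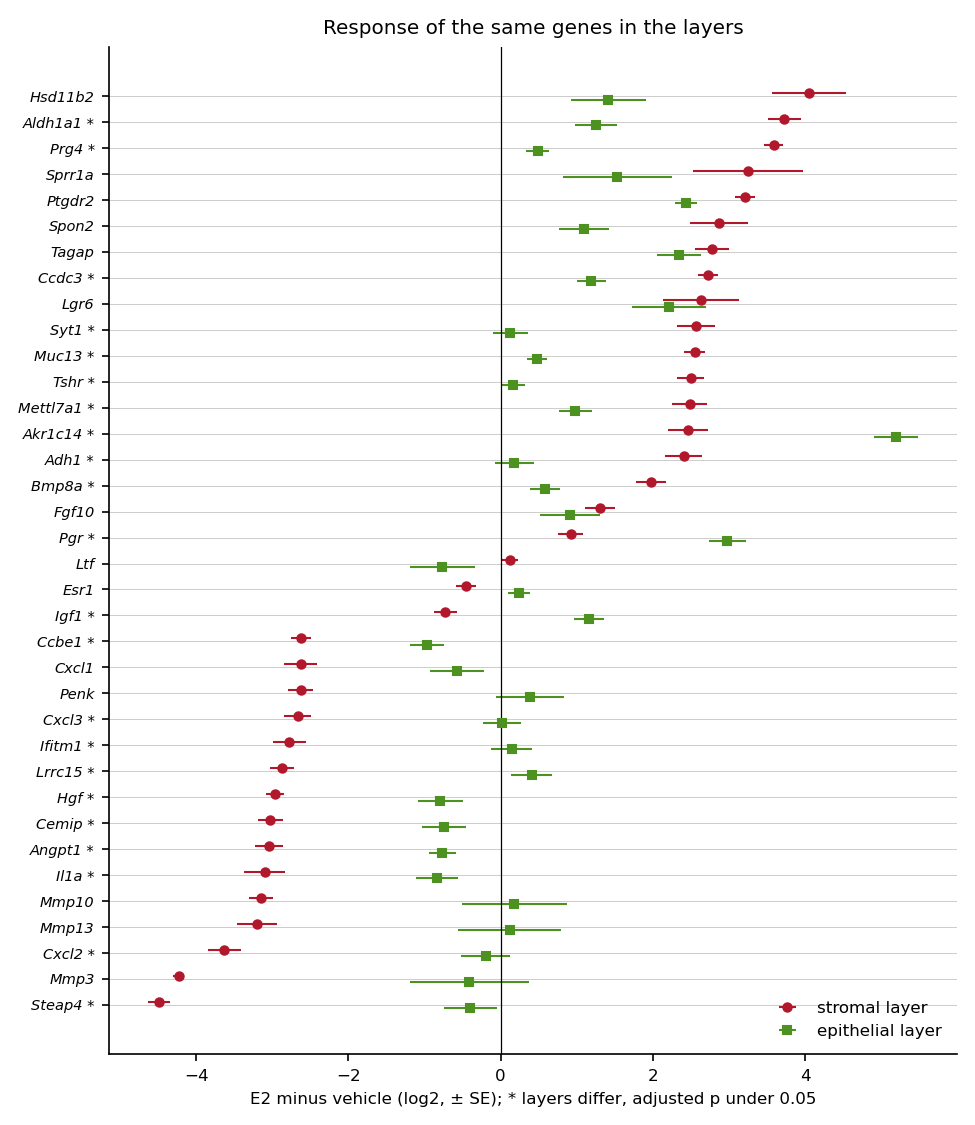
The log2 difference E2 minus vehicle with its standard error in the stromal layer (red circles) and in the epithelial layer (green squares) for 36 genes, with a star where the difference between the layers had an adjusted p under 0.05. Stars mark 22 genes, among them Pgr and Akr1c14, whose squares lie to the right of their circles. Stromal standard errors come from the 6 stromal arrays alone and epithelial ones from the fit of all 12 arrays.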

How the data were processed

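Stromal and epithelial RNA was measured on Affymetrix Mouse Gene 1.0 ST arrays. The values are log2 signals as deposited by the authors. The submitters' processing notes name RMA, whose version and settings are not given in the sources used here. The values were used as deposited, without further normalization or filtering. Of 35556 probe sets, 21789 had exactly 1 gene symbol in the platform annotation, 1621 several and 12146 none, and the last 2 kinds were left out of the tests. A gene with several probe sets (999 of 19938) was represented by the brightest. The number of arrays limits the precision.

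The 6 stromal arrays were fitted alone with limma 3.58.1 in R 4.3.3 (lmFit and eBayes, 4 residual and 3.94 prior degrees of freedom). The difference between layers, and the epithelial differences with their standard errors, came from 1 fit of 12 arrays in 4 groups. The procedure was tested on simulated data. The 38 lists of genes (6 of cell type markers) hold 840 entries, 790 of them measured. Genes were named by rule, namely the 15 largest called differences in each direction with separate groups, up to 6 members of each list with the smallest p, Fgf10, Bmp8a, Prg4, Aldh1a1, Esr1, Pgr, Igf1 and Ltf, and members of a list whose role the text turns on. Gene models, RIKEN clones, microRNAs and olfactory receptors entered the counts without being named. Members, lists and rules were chosen with earlier results of these data known.

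Promoters (250 bases before to 50 after a start site) came from RefSeq (GRCm38.p6) and matched 15614 of the 19938 genes by symbol. Other settings are given with the results below, and 2 of them, the average of E2 replicates 1 and 2 and the fit without E2 replicate 3 and vehicle replicate 2, were chosen after seeing the data.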

Additional observations from a re-analysis of the deposited data

Results flagged for a closer look

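The E2 difference of 22 of the 36 genes followed was unlike in stroma and epithelium (limma on 12 arrays, adjusted p under 0.05 for the stromal minus the epithelial difference). Most of the 36 were picked for the size of their stromal difference, which enters this test. The count is therefore not read against the 1% called over all genes. The difference between layers is given for each on the log2 scale. It was above 0 for Prg4 (3.10), Aldh1a1 (2.48), Syt1 (2.44), Tshr (2.33), Adh1 (2.23), Muc13 (2.07), Ccdc3 (1.53), Mettl7a1 (1.51) and Bmp8a (1.39), genes whose stromal difference was the higher one. It was below 0 for genes called lower in stroma whose epithelial difference was nearer to 0 or above it, whether or not it was called there, namely Steap4 (-4.09), Cxcl2 (-3.43), Lrrc15 (-3.28), Ifitm1 (-2.93), Cxcl3 (-2.69), Cemip (-2.29), Angpt1 (-2.27), Il1a (-2.27), Hgf (-2.17) and Ccbe1 (-1.66). It was also below 0 for Akr1c14 (-2.73) and Pgr (-2.06), which had larger increases in epithelium, and for Igf1 (-1.89), whose signs were opposite. In 13 of the 22 the call held in each of 12 fits without 1 array. It was lost in at least 1 such fit for Bmp8a, Pgr, Ccdc3, Mettl7a1, Adh1, Il1a, Cemip, Hgf and Ccbe1, whose largest adjusted p lay between 0.0513 (Adh1) and 0.122 (Mettl7a1).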

How the results depend on the processing

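The counts of probe sets called in stroma, 857 higher and 1251 lower, were within 1.5 times of these with low values filtered out, every probe set included, arrays centred on their median, quantile normalization, a variance trend with a robust prior and the mean of a gene's probe sets. They were 1647 and 2244 with array weights, 342 and 479 in the fit of all 12 arrays, 446 and 674 with E2 replicates 1 and 2 averaged, 372 and 568 at an adjusted p under 0.01, and 162 and 198 at 2-fold or more. Leaving out 1 array gave 409 to 865 higher and 644 to 1242 lower, the fewest without E2 replicate 2 (409 and 644) and E2 replicate 1 (476 and 662), and leaving out E2 replicate 3 and vehicle replicate 2 together gave 1156 and 1696. Whether the replicate numbers pair the arrays is not given in the labels. The residuals of same-numbered vehicle and E2 arrays correlated at 0.23, -0.05 and 0.01, and those of differently numbered arrays at -0.24 to 0.19. With 3 arrays in a group these values cannot decide whether the arrays were paired. With the replicate number as a block the counts were 753 and 1130 in stroma and 43 and 105 between layers. Between layers 69 probe sets were called higher and 160 lower, 110 higher after quantile normalization, 1503 and 2450 with array weights, and 26 to 377 higher and 68 to 651 lower without 1 array, the fewest without epithelial E2 replicate 2 and the most without epithelial vehicle replicate 3 (377) and epithelial E2 replicate 3 (651). Of 159 named genes called, 121 were called in every fit without 1 array, and of 214 called list members 139 were. No named gene that was called changed sign under these settings. Signs that did turn belonged to differences that were not called, namely Ltf in stroma (0.12, and -0.0025 with array weights), and between layers Fgf10 (0.39, and -0.19 to 0.84 without 1 array, the lowest without epithelial vehicle replicate 3) and Tagap (0.43, and -0.10 with array weights). The cause of these shifts was not tested. The median difference over genes moved by 0.0042 with centring and by -0.0086 with quantile normalization.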

Other observations

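Other gene groups changed without a common direction. Among contractile and actomyosin genes 3 of 21 were called higher and 1 lower (median 0.13), and 6 were higher without E2 replicate 3. The share called was 19.0%, against 9.65% over all genes. The calponin gene Cnn1, a smooth muscle protein, rose from 11.42, 11.48 and 11.52 under vehicle to 12.08, 12.09 and 12.06 under E2 (0.60 ± 0.06, adjusted p = 0.000903), and the myosin light chain Myl9 rose by 0.44 ± 0.06, while the nonmuscle myosin Myh9 fell by 0.59 ± 0.06. Of 22 integrins and laminins 3 were higher and 5 lower (36.4% called), with 3 to 4 lower without 1 array. Itga6, a laminin-binding integrin, rose from 8.90, 10.01 and 9.07 to 11.10, 11.02 and 10.94 (1.69 ± 0.26, adjusted p = 0.00534), and the laminin Lama5 rose by 0.67 ± 0.10, while Lama1 fell by 1.32 ± 0.23 and Itgav by 0.44 ± 0.06.

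In lipid handling 4 of 17 genes were lower and 1 higher (29.4% called, against 9.65% over all genes). The fatty acid-binding protein Fabp4 fell from 10.36, 10.45 and 10.40 to 9.26, 9.25 and 8.94 (-1.25 ± 0.09, adjusted p = 0.000303), and the cholesterol exporters Abca1 and Abcg1 fell by 1.08 ± 0.12 each. The hypoxia gene Egln3, a prolyl hydroxylase, fell by 1.49 ± 0.12 in a list with 2 of 20 lower and 1 higher. The share called in that list was 15%, against 9.65% over all genes. Markers of vessels and their supporting cells also split. Of 12 endothelial markers 2 were called higher and 1 lower (median 0.11), and of 12 smooth muscle and pericyte markers also 2 and 1 (median 0.13). The share called was 25% in each list, against 9.65% over all genes. The endothelial cadherin Cdh5, at 11.54, 10.93 and 11.46 under vehicle and 9.77, 9.74 and 9.94 under E2, fell by 1.50 ± 0.15, whereas the endothelial receptor Eng rose by 0.77 ± 0.08 and Pecam1, a defining endothelial marker, lay between 6.47 and 6.77 on all 6 arrays. Kdr, another endothelial receptor, was called higher (0.40 ± 0.10), with a largest adjusted p of 0.122 without 1 array. The pericyte proteoglycan Cspg4 fell from 10.95, 11.47 and 11.59 to 9.32, 9.25 and 9.12 (-2.11 ± 0.16, adjusted p = 0.000268). The members of its list called higher were Cnn1 and Lmod1 (0.42 ± 0.08). The largest adjusted p of Lmod1 without 1 array was 0.0741.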
